A study of Homo sapiens with 12 samples.

Results

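The 9 genes described here are FLT3, its ligand gene FLT3LG, and the haematopoietic growth factor receptor genes KIT, CSF1R, CSF3R, CSF2RA, CSF2RB, IL6R and EPOR. They were taken by symbol from the 19504 named genes of a count table, and all 9 had a row. The series profiled MV4-11 and OCI-AML3, established human lines of acute myeloid leukaemia, by sequencing the 3' ends of their mRNA. The 4 groups were MV4-11 with AC220, MV4-11 with DMSO, OCI-AML3 with AC220 and OCI-AML3 with DMSO, with 3 libraries each. AC220 (quizartinib), a small-molecule inhibitor of the FLT3 kinase, was given at 5 nM for 24 h, and DMSO is its vehicle. MV4-11 carries an internal tandem duplication in FLT3 (FLT3-ITD), which keeps the kinase active without ligand, whereas OCI-AML3 has no FLT3-ITD and is known for its NPM1 mutation. Each line stands for 1 leukaemia, so that the ITD cannot be told apart from any other difference between the lines.

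Haematopoietic growth factor receptors fall into 2 families. FLT3, KIT and CSF1R are class III receptor tyrosine kinases, which pair when a ligand binds outside the cell and then phosphorylate each other within it. CSF3R, CSF2RA, CSF2RB, IL6R and EPOR are cytokine receptor chains without a kinase of their own. Of these, CSF3R, CSF2RB and EPOR pass their signal through bound JAK kinases, CSF2RA binds its ligand together with CSF2RB, and IL6R signals together with the shared chain IL6ST. In normal blood formation FLT3 and KIT mark stem and progenitor cells, CSF1R monocytes and macrophages, CSF3R neutrophils and their precursors, and EPOR red cell precursors.

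Libraries held 10877198 to 16918761 counts. Levels are given as CPM, counts divided by the TMM-scaled library size, and because QuantSeq reads transcript ends they do not grow with transcript length, so CPM levels are compared between genes. Of the named genes 12392 had enough counts to be tested, among them 8 of the 9 genes, with KIT below the filter. The count does not tell FLT3-ITD and normal FLT3 transcripts apart, and neither protein nor phosphorylation was measured. The labels do not say whether replicates were separate cultures, so the spread behind each p-value may be technical only. MV4-11 AC220 replicate 1 stood apart: 6.05% of tested genes were at least 1.5-fold above or below both other replicates of its group, against 2.49% to 4.98% in the other libraries. Several results that depend on it, though not all, are given with and without it.

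All 9 myeloid markers (among them TYROBP, LYZ, CD33 and MPO) were detected in each group. Their summed level was 1109 to 1347 CPM in MV4-11 AC220 libraries, against 434 to 452 CPM in MV4-11 DMSO. TYROBP held most of that difference, with a mean of 794 CPM in MV4-11 AC220 and 192 CPM in MV4-11 DMSO, while MPO had a mean of 8.87 CPM in MV4-11 AC220 and 9.55 CPM in MV4-11 DMSO. The summed level was 356 to 384 CPM in OCI-AML3 AC220 libraries and 335 to 344 CPM in OCI-AML3 DMSO. The erythroid and megakaryocyte list reached 4.56 CPM at most, with HBB, HBG1 and GP9 among those at 0 in every library. The lymphoid list reached 2.76 CPM, with CD3E and CD2 of 8 at 0 in every library, and the stromal and epithelial list 8.62 CPM, with COL3A1, EPCAM and KRT19 of 8 at 0. In bulk RNA, fewer cells of a type and less RNA per cell cannot be told apart.

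In MV4-11, AC220 was followed by higher levels of 4 of the 8 tested genes, a lower level of 1, and no call for 3. CSF1R rose most, CSF3R and IL6R also rose, FLT3 itself rose less, and EPOR fell. Calls rest on edgeR's quasi-likelihood F test with Benjamini-Hochberg adjustment over all tested genes and a threshold of 0.05. By the same rule 58.3% of all tested genes were called in MV4-11, 31.5% as higher and 26.9% as lower, so that 5 of 8 is near the share among all genes. The AC220 and DMSO libraries of MV4-11 did not overlap for 6 of the 8, against 62.4% of all tested genes. In OCI-AML3 none of the 8 was called, where 3.95% of all tested genes were (3.44% as higher and 0.508% as lower). At an unadjusted p under 0.05, 3 of the 8 differed there (FLT3, CSF2RB and CSF1R), beside 2574 of all 12392 tested genes. DESeq2 called 1 of the 8, FLT3, beside 813 of the 12392, and limma-voom called none of the 8. The AC220 and DMSO libraries of OCI-AML3 did not overlap for 3 of the 8 (FLT3, CSF1R and IL6R), against 23.9% of all tested genes.

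**Figure D1:**
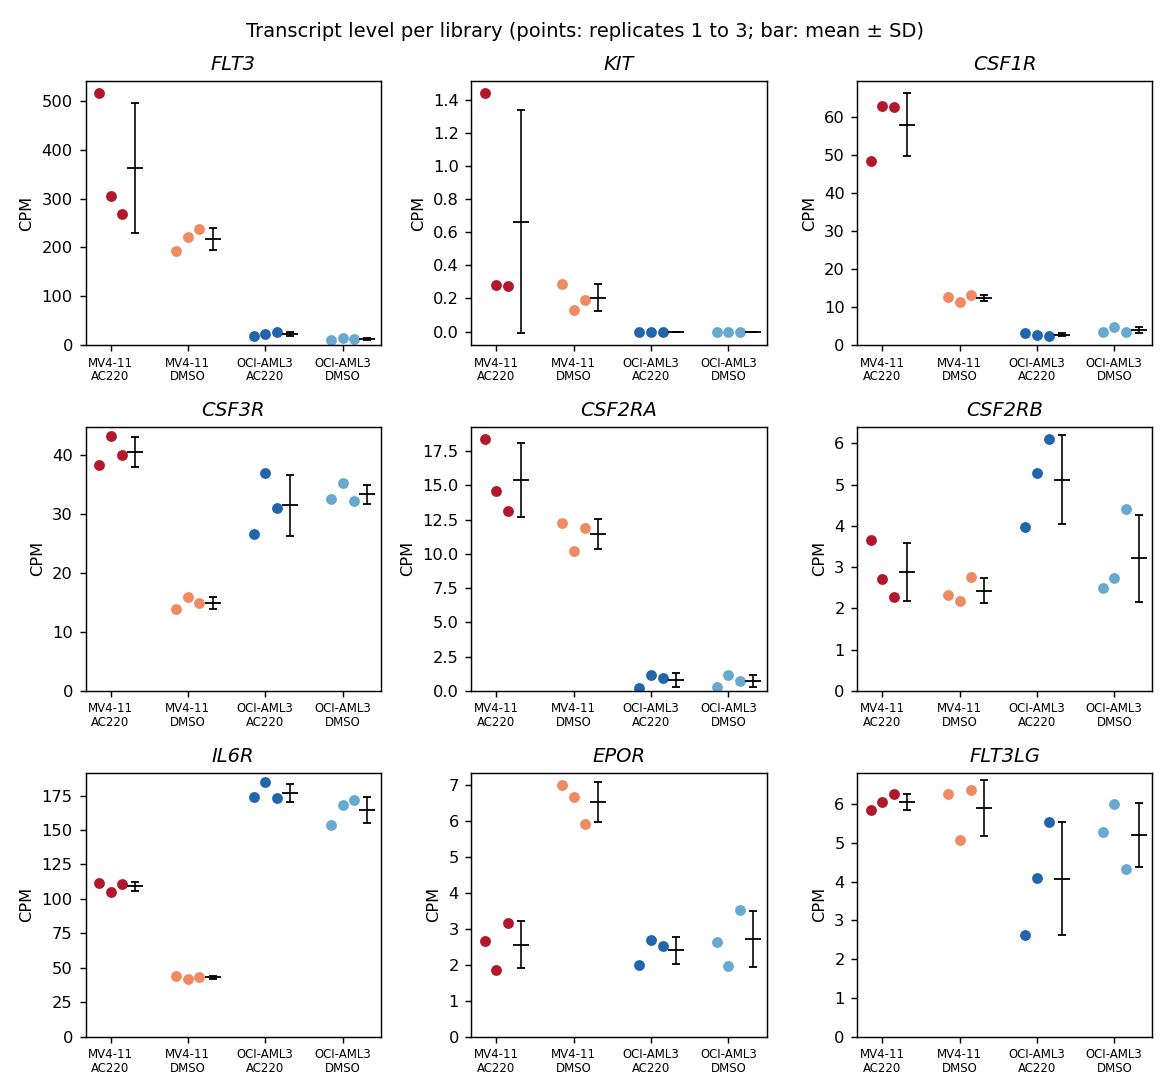
Level of each of the 9 genes in every library, in TMM-scaled CPM on a linear axis of its own, with 1 point per library, a bar for the mean and SD of each group, and the AC220 group left of the DMSO group of each line. FLT3 sits between 193 and 516 CPM in all 6 MV4-11 libraries and between 10.2 and 27.1 CPM in all 6 OCI-AML3 libraries. KIT had no count in OCI-AML3.

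FLT3, the target of AC220, is the receptor for the FLT3 ligand. It had 516, 306 and 269 CPM in the MV4-11 AC220 libraries, against 193, 222 and 238 CPM in the MV4-11 DMSO libraries. The groups did not overlap, and AC220 replicate 1 was 1.69-fold above the next library of its group. The log2 fold change was 0.74 (SE 0.236, 1.67-fold, edgeR adjusted p = 0.0248), and without that library it was 0.40 (SE 0.113, adjusted p = 0.00718). The call was lost without MV4-11 DMSO replicate 1 (0.66, adjusted p = 0.0832), without MV4-11 DMSO replicate 2 (0.75, adjusted p = 0.0603) and when only MV4-11 libraries were fitted (0.69, adjusted p = 0.119). In OCI-AML3, FLT3 had 18.7, 23.5 and 27.1 CPM with AC220, against 10.2, 13.4 and 11.9 CPM with DMSO. Every AC220 library of OCI-AML3 thus stood above every DMSO library, while all 6 were far below every MV4-11 library. The log2 difference was 0.97 (SE 0.324), with an edgeR adjusted p of 0.135 that missed the threshold. The same difference passed in 4 of 20 alternatives. These were DESeq2 (adjusted p = 0.0119), limma on the deposited normalised values (0.0486), only OCI-AML3 libraries fitted (0.00147) and MV4-11 AC220 replicate 1 left out (0.00131). In the other 16 it stayed uncalled, with adjusted p up to 0.418. The responses of the lines to AC220 were not shown to differ for FLT3, with a log2 difference of MV4-11 minus OCI-AML3 responses of -0.23 (95% interval -1.15 to 0.69, edgeR adjusted p = 0.683). Without MV4-11 AC220 replicate 1 that difference was -0.57 (adjusted p = 0.0195), a larger response in OCI-AML3.

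FLT3 ranked 322 of 12392 tested genes by mean CPM in MV4-11 with AC220 and 654 with DMSO. In OCI-AML3 it ranked 5458 with AC220 and 7278 with DMSO. MV4-11 was thus 15.7-fold above OCI-AML3 under AC220 (log2 3.97, SE 0.281, edgeR adjusted p = 1.05e-06) and 18.4-fold above it under DMSO (log2 4.20, SE 0.299, adjusted p = 1.64e-06). Without MV4-11 AC220 replicate 1 the log2 difference under AC220 was 3.63 (SE 0.127, edgeR adjusted p = 4.73e-13). FLT3 lies on the minus strand of chromosome 13, and its promoter (chr13:28100527-28100826, GRCh38.p14) is shown because FLT3 is the drug's target and had the highest level of the 9 genes in MV4-11. Sequences run 5' to 3' on the gene's strand from 250 bases before to 50 bases after the RefSeq start, with capitals marking motifs searched on both strands. GAGGAA (on the other strand TTCCTC) is a core bound by PU.1, the master regulator of myeloid genes.
FLT3 promoter: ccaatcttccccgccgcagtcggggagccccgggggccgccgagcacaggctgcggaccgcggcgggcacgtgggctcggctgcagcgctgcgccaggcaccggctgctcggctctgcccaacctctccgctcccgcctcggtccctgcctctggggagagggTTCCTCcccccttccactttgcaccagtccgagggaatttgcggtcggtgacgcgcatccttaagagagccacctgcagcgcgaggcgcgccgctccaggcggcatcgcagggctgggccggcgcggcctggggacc
The window holds 1 PU.1 core, and 27.9% of 35116 RefSeq promoters of this length hold at least 1. The counts do not measure which start site was used.

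FLT3LG encodes the FLT3 ligand, a membrane-bound or secreted cytokine. It had 5.85, 6.05 and 6.26 CPM in the MV4-11 AC220 libraries, against 6.26, 5.07 and 6.36 CPM in MV4-11 DMSO. Both groups overlapped, and the log2 difference was 0.04 (95% interval -0.40 to 0.47, edgeR adjusted p = 0.903). In OCI-AML3 it had 2.61, 4.09 and 5.53 CPM with AC220, against 5.28, 6.0 and 4.34 CPM with DMSO (log2 difference -0.33, 95% interval -0.79 to 0.13, adjusted p = 0.437). The groups overlapped there too, and AC220 replicate 1 was the lowest of the 12 libraries. Counts of FLT3 per count of FLT3LG averaged 60.6 ± 24.2 in MV4-11 AC220 and 37.4 ± 6.51 in MV4-11 DMSO (SD, n = 3 each). The groups overlapped, from 43.0 to 88.3 with AC220 and from 30.9 to 43.9 with DMSO, and without AC220 replicate 1 the AC220 mean was 46.8. In OCI-AML3 the ratio was 5.93 ± 1.13 with AC220 and 2.31 ± 0.416 with DMSO (SD, n = 3 each). Receptor transcripts thus outnumbered those of the ligand in every library, by the least in OCI-AML3 with DMSO. No test was run on this ratio.

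KIT, the receptor for stem cell factor, had 19, 3 and 3 counts in the MV4-11 AC220 libraries, against 5, 2 and 3 counts in MV4-11 DMSO. Replicate 1, the library that stood apart, thus held most of the counts of its group. Without a filter on low counts the log2 difference was 1.66 (edgeR adjusted p = 0.124). The 6 OCI-AML3 libraries had 0 counts each. Set against a floor of 3 counts over the OCI-AML3 group, the observed KIT level of MV4-11 under AC220 was 9.40-fold higher. Without replicate 1 it was 3.62-fold higher, and under DMSO 2.75-fold. The counting error of the MV4-11 counts (25, 6 and 10 over the libraries used) is left out, so these are not lower limits. KITLG, the gene of stem cell factor, had no count in any library.

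CSF1R, the receptor for macrophage colony-stimulating factor and a close relative of FLT3, had 48.4, 62.9 and 62.7 CPM in the MV4-11 AC220 libraries, against 12.6, 11.4 and 13.05 CPM in MV4-11 DMSO. Every AC220 library was far above every DMSO library, and CSF1R rose 4.68-fold (log2 2.23, SE 0.126, edgeR adjusted p = 2.97e-15). Its rank by mean CPM was 2672 of the 12392 tested genes with AC220 and 7194 with DMSO. In OCI-AML3 it had 3.16, 2.64 and 2.44 CPM with AC220, against 3.50, 4.86 and 3.40 CPM with DMSO. All 3 AC220 libraries of OCI-AML3 thus lay below the DMSO libraries, with a log2 difference of -0.52 (SE 0.206) that was not called (edgeR adjusted p = 0.138). The responses of the lines differed by 2.75 (SE 0.241, adjusted p = 1.19e-10).

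Of the 10 ligand genes of these receptors other than FLT3LG, CSF1 alone had enough counts to be tested. CSF1 encodes macrophage colony-stimulating factor, which binds CSF1R. It had 0.607, 0.465 and 0.454 CPM in the MV4-11 AC220 libraries, against 4.17, 7.18 and 5.91 CPM in MV4-11 DMSO. CSF1 fell 11.0-fold (log2 -3.46, SE 0.394, edgeR adjusted p = 1.16e-08), resting on 18 counts over the AC220 group and 276 over the DMSO group. Ligand and receptor thus moved in opposite directions, and CSF1R had 111 counts per CSF1 count in MV4-11 AC220, against 2.17 in MV4-11 DMSO. In OCI-AML3, CSF1 had 1.17, 1.94 and 1.94 CPM with AC220, against 0.777, 0.228 and 1.23 CPM with DMSO, with overlapping groups (log2 difference 1.18, edgeR adjusted p = 0.0977, not called), although it was called higher without OCI-AML3 DMSO replicate 3. CSF1R had 1.57 counts per CSF1 count in OCI-AML3 AC220, against 5.20 in OCI-AML3 DMSO. The difference of the CSF1 responses, MV4-11 minus OCI-AML3, was -4.64 (SE 0.583, adjusted p = 1.35e-07). KITLG, CSF2, IL3, IL5 and THPO had no count in any library, CSF3 and IL6 had at most 1, EPO at most 4, and IL34, the other ligand of CSF1R, at most 8.

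**Figure D2:**
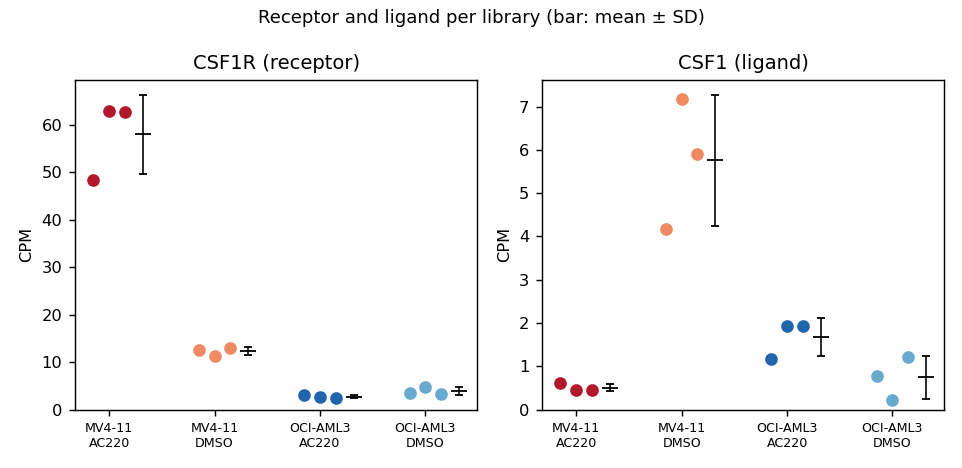
CSF1R and its ligand gene CSF1 in every library, in TMM-scaled CPM on a linear axis for each gene, with 1 point per library and a bar for the mean and SD of each group. In MV4-11 the AC220 libraries are higher for CSF1R (48.4 to 62.9 CPM, against 11.4 to 13.05 CPM with DMSO) and lower for CSF1 (0.454 to 0.607 CPM, against 4.17 to 7.18 CPM with DMSO). In OCI-AML3 neither gene was called.

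CSF3R, the receptor for granulocyte colony-stimulating factor, had 38.3, 43.3 and 40.0 CPM in the MV4-11 AC220 libraries, against 13.9, 15.8 and 14.9 CPM in MV4-11 DMSO. It rose 2.72-fold with no overlap (log2 1.45, SE 0.111, edgeR adjusted p = 3.39e-12). In OCI-AML3 it had 26.5, 36.9 and 30.9 CPM with AC220, against 32.6, 35.2 and 32.2 CPM with DMSO. These groups overlapped (log2 difference -0.08, 95% interval -0.30 to 0.14, adjusted p = 0.739). The responses of the lines differed by 1.52 (SE 0.154, adjusted p = 2.18e-09). Under AC220 CSF3R was 1.28-fold higher in MV4-11 than in OCI-AML3 (log2 0.36, adjusted p = 0.00314), whereas under DMSO it was 2.24-fold lower in MV4-11 (log2 -1.16, adjusted p = 2.48e-10). It was the one tested gene of the 8 called in opposite directions between the lines in these comparisons.

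IL6R, the ligand-binding chain of the interleukin-6 receptor, had 112, 105 and 110 CPM in the MV4-11 AC220 libraries, against 43.8, 42.1 and 43.1 CPM in MV4-11 DMSO. It rose 2.54-fold with no overlap (log2 1.34, SE 0.0701, edgeR adjusted p = 4.37e-16). In OCI-AML3 it had 174, 185 and 173 CPM with AC220, against 154, 168 and 172 CPM with DMSO. The lowest AC220 library there stood just above the highest DMSO library, and the log2 difference of 0.11 (95% interval -0.03 to 0.24) was not called (adjusted p = 0.371). The responses of the lines differed by 1.24 (SE 0.0957, adjusted p = 8.13e-12). An antisense gene, IL6R-AS1, overlaps IL6R in the annotation and had no row of its own, and since the strand setting of the counting is not given, reads from it cannot be told apart from IL6R. Other genes without a row overlap IL6R (PSMD8P1), FLT3 (KATNBL1P1), CSF1R (RPL7P1), CSF2RA and CSF2RB in the same annotation. How their reads were counted is not given.

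The promoters of CSF1R, CSF3R and IL6R are shown because these 3 genes rose together in MV4-11. RefSeq lists 2 starts for CSF1R and 2 for CSF3R, all on the minus strand. The second of each, the one of the 2 with PU.1 cores, is printed (chr5:150086505-150086804 and chr1:36482864-36483163). The IL6R promoter lies on the plus strand (chr1:154405093-154405392), and all 3 are in GRCh38.p14 with PU.1 cores in capitals.
CSF1R promoter, second start: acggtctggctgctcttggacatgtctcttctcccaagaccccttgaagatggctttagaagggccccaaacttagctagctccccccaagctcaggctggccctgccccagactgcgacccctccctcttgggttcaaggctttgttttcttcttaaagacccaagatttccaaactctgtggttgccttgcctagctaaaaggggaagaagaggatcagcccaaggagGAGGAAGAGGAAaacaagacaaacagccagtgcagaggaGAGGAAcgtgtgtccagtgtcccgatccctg
CSF3R promoter, second start: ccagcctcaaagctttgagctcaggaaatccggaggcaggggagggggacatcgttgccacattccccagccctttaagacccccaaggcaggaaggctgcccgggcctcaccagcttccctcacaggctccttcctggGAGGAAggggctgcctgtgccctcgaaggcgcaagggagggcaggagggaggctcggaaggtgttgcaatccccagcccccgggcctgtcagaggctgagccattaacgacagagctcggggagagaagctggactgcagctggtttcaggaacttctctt
IL6R promoter: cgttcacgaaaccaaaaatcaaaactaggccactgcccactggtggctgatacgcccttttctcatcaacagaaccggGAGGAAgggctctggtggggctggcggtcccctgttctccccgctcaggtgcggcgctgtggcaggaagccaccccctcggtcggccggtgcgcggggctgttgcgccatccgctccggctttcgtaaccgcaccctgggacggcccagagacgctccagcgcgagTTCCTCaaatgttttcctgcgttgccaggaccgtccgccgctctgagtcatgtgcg
CSF1R held 3 PU.1 cores, of which 2 lie end to end, CSF3R 1 and IL6R 2. Of RefSeq promoters 27.9% hold at least 1. That share is over promoters not chosen by motif. It is thus no yardstick for the CSF1R and CSF3R windows, which were picked by their cores. The first CSF1R start had none, and the first CSF3R start had none but held 1 C/EBP motif (TTGCNNAA), which 10.5% of RefSeq promoters hold. KIT had none of the motifs, CSF2RA held 2 PU.1 cores and the second FLT3LG start held 1. CSF2RB is named only.

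EPOR, the erythropoietin receptor, had 2.66, 1.86 and 3.18 CPM in the MV4-11 AC220 libraries, against 7.02, 6.67 and 5.91 CPM in MV4-11 DMSO. It fell 2.54-fold with no overlap (log2 -1.34, SE 0.243, edgeR adjusted p = 2.50e-05) and was the only one of the 8 called lower. In OCI-AML3 it had 1.98, 2.71 and 2.51 CPM with AC220, against 2.64, 1.97 and 3.54 CPM with DMSO (log2 difference -0.17, 95% interval -0.72 to 0.38, adjusted p = 0.780). EPOR in AC220-treated MV4-11 thus lay in the range of OCI-AML3, and the line difference under AC220 was 0.09 (95% interval -0.48 to 0.65, adjusted p = 0.784), against 1.26 under DMSO (adjusted p = 3.18e-05). The responses of the lines differed by -1.17 (SE 0.365, adjusted p = 0.00933). The summed erythroid and megakaryocyte markers, of which 1 of 10 passed the filter and was not called in either line, were 3.11 to 4.56 CPM in MV4-11 AC220 and 2.03 to 2.31 CPM in MV4-11 DMSO. Erythropoietin receptor is known in red cell precursors as a target of GATA1, and GATAAG (on the other strand CTTATC), capitalised in the promoter on the minus strand (chr19:11384265-11384564, GRCh38.p14), is a core that GATA factors bind.
EPOR promoter: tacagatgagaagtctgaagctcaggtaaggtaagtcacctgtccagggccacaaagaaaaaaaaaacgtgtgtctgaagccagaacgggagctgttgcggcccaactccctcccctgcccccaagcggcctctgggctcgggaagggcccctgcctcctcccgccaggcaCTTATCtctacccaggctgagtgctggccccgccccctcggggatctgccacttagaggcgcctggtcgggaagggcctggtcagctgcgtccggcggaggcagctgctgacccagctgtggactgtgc
The window holds 1 GATA core, and 6.36% of RefSeq promoters hold at least 1.

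CSF2RA and CSF2RB are the chains of the receptor for granulocyte-macrophage colony-stimulating factor. CSF2RA, the ligand-binding chain, had 18.4, 14.6 and 13.2 CPM in MV4-11 AC220, against 12.3, 10.2 and 11.9 CPM in MV4-11 DMSO. The groups did not overlap, but the log2 difference of 0.43 (95% interval 0.01 to 0.84) missed the threshold after adjustment (edgeR adjusted p = 0.0709). It passed in 5 of 20 alternatives, with adjusted p of 0.0311 to 0.0480. In OCI-AML3 the gene had 0.180, 1.18 and 0.934 CPM with AC220, against 0.311, 1.14 and 0.723 CPM with DMSO, and no difference was detectable at counts of 2 to 17 a library (log2 0.15, 95% interval -0.81 to 1.11, adjusted p = 0.907). CSF2RA lies in the pseudoautosomal region, where the X and Y copies are the same, and how reads with several positions were counted is not given. CSF2RB, the signalling chain shared with the receptors for interleukin-3 and interleukin-5, had 3.64, 2.70 and 2.27 CPM in MV4-11 AC220, against 2.32, 2.18 and 2.76 CPM in MV4-11 DMSO (log2 difference 0.26, 95% interval -0.31 to 0.83, adjusted p = 0.440). In OCI-AML3 it had 3.97, 5.27 and 6.11 CPM with AC220, against 2.49, 2.73 and 4.41 CPM with DMSO. Only DMSO replicate 3 reached into the AC220 range there. The log2 difference was 0.68 (95% interval 0.16 to 1.20, adjusted p = 0.118), and without that library it was 0.98 and called (adjusted p = 0.0334). In 18 of 19 alternatives it stayed uncalled, with adjusted p up to 0.437. The lines thus held the chains in opposite ratio, with CSF2RA far above CSF2RB in MV4-11 and below it in OCI-AML3, in every library.

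**Figure D3:**
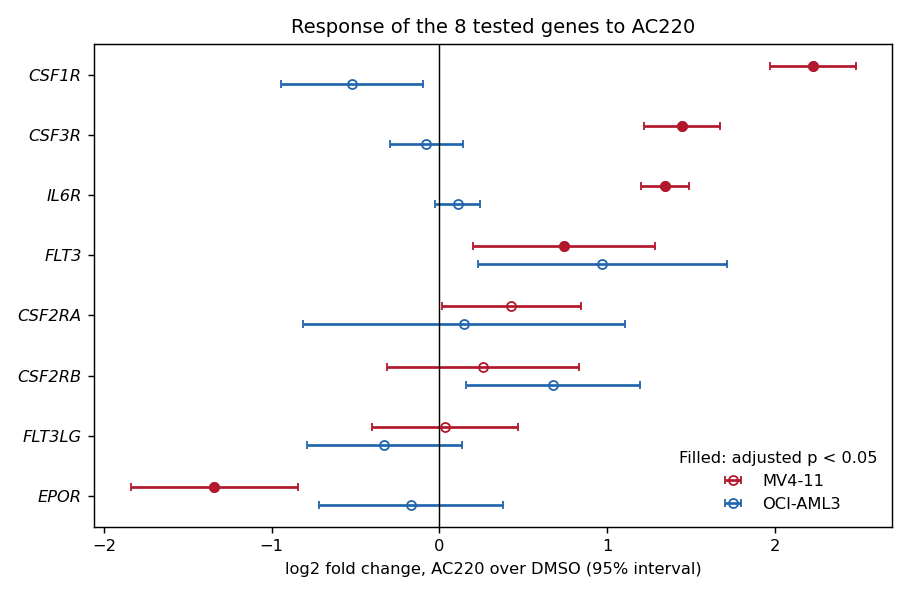
Log2 fold change of AC220 over DMSO for the 8 tested genes in MV4-11 and in OCI-AML3, with bars for the 95% interval from the edgeR fit, a line at 0 and filled points for an adjusted p under 0.05. In MV4-11 CSF1R (2.23), CSF3R (1.45), IL6R (1.34), FLT3 (0.74) and EPOR (-1.34) were called, and in OCI-AML3 no gene was.

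The difference of the responses was itself called for 4 of the 8 genes, CSF1R, CSF3R, IL6R and EPOR, where 46.7% of all tested genes were called (23.0% with the higher and 23.7% with the lower response in MV4-11). In each of the 4, the response of MV4-11 was the larger in size. These calls, and those of the same 4 genes in MV4-11, held under every alternative run. For CSF2RA the difference of responses was 0.28 (95% interval -0.78 to 1.35), for CSF2RB -0.42 (95% interval -1.19 to 0.36) and for FLT3LG 0.36 (95% interval -0.27 to 1.00), and the edgeR adjusted p-values were 0.691, 0.383 and 0.350. The myeloid markers moved in the same libraries, with 5 of 9 higher and 2 lower in MV4-11 (median log2 fold change 0.24) and the summed level, mostly TYROBP, above that of DMSO in every AC220 library. Their part in the receptor changes was not tested.

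Between the lines, 7 of the 8 tested genes differed under AC220 (5 higher and 2 lower in MV4-11), where 76.2% of all tested genes were called (36.7% higher and 39.5% lower). Under DMSO 6 of the 8 differed (4 higher and 2 lower in MV4-11), where 65.5% of all tested genes were called (32.1% higher and 33.4% lower). Libraries of the lines did not overlap for 7 of the 8 under AC220 and 6 under DMSO, against 75.5% and 71.9% of all tested genes. Both comparisons use separate libraries. CSF2RA was 18.9-fold higher in MV4-11 under AC220 (log2 4.24, edgeR adjusted p = 6.52e-13) and 15.6-fold higher under DMSO (log2 3.96, adjusted p = 8.39e-12). CSF1R was 21.2-fold higher in MV4-11 under AC220 (log2 4.41, adjusted p = 1.67e-20) and 3.16-fold higher under DMSO (log2 1.66, adjusted p = 3.17e-10). CSF1R, CSF2RA and FLT3 thus had the largest line differences of the 8 tested genes under AC220. IL6R ran the other way, 1.62-fold lower in MV4-11 under AC220 (log2 -0.70, adjusted p = 1.38e-10) and 3.82-fold lower under DMSO (log2 -1.93, adjusted p = 3.97e-20). CSF2RB was lower in MV4-11 under AC220 (log2 -0.83, adjusted p = 0.00564), and under DMSO its difference of -0.41 was not called (adjusted p = 0.183). FLT3LG was called higher in MV4-11 under AC220 (log2 0.55, edgeR adjusted p = 0.0299), but not under DMSO (0.18, adjusted p = 0.464). That FLT3LG call was lost without MV4-11 AC220 replicate 3 (adjusted p = 0.0681), OCI-AML3 AC220 replicate 1 (0.191) or OCI-AML3 AC220 replicate 2 (0.0680).

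The receptors made up different mixtures in the lines. Summed over the 8 receptor genes, the level was 593 ± 129 CPM in MV4-11 AC220 and 309 ± 22.4 CPM in MV4-11 DMSO, and 243 ± 14.2 CPM in OCI-AML3 AC220 and 220 ± 12.9 CPM in OCI-AML3 DMSO (SD, n = 3 each). Without MV4-11 AC220 replicate 1 the AC220 mean in MV4-11 was 519 CPM. FLT3 held 60.1% ± 8.44 of the receptor counts in MV4-11 AC220 and 70.5% ± 2.42 in MV4-11 DMSO, against IL6R shares of 18.9% ± 3.52 and 14.0% ± 1.20 (SD, n = 3 each). In OCI-AML3 IL6R held 73.1% ± 2.68 with AC220 and 74.7% ± 0.738 with DMSO, and FLT3 9.49% ± 1.51 and 5.37% ± 0.492 (SD, n = 3 each). FLT3 was thus the leading receptor transcript in MV4-11 and IL6R in OCI-AML3, with either treatment. CSF1R held 10.3% ± 3.25 in MV4-11 AC220 and 4.02% ± 0.381 in MV4-11 DMSO, and CSF3R 7.07% ± 1.65 and 4.82% ± 0.290 (SD, n = 3 each). The FLT3 shares of MV4-11 overlapped between treatments, and without AC220 replicate 1 the AC220 mean was 55.4%. The shares are descriptions without a test, and a share can fall while the level rises, as for FLT3 in MV4-11.

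**Figure D4:**
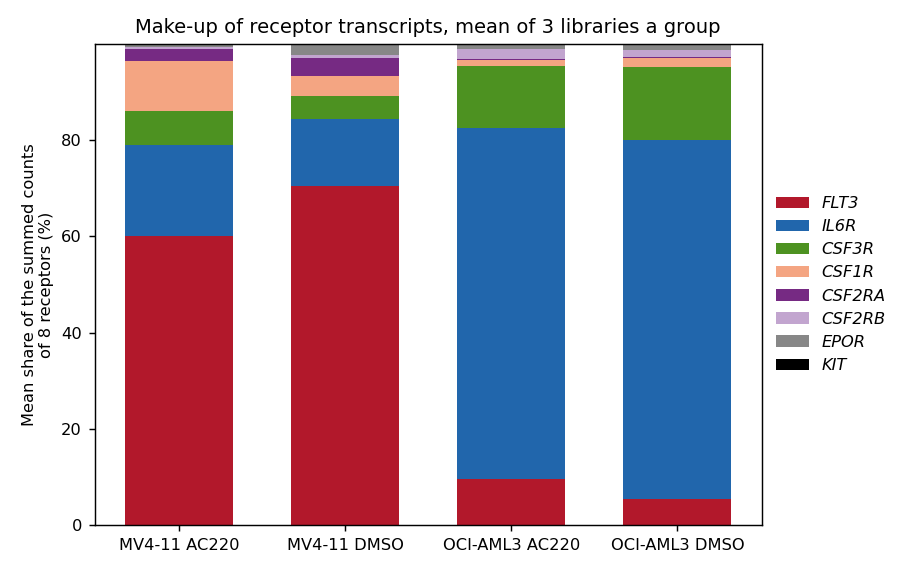
Share of each receptor in the summed counts of the 8 receptor genes, as the mean of 3 libraries per group in percent, with AC220 left of DMSO for each line. FLT3 takes 60.1% and 70.5% in MV4-11 with AC220 and DMSO, and IL6R 73.1% and 74.7% in OCI-AML3 with AC220 and DMSO.

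By level, the order in MV4-11 AC220 was FLT3, IL6R, CSF1R, CSF3R, CSF2RA, FLT3LG, CSF2RB, EPOR and KIT. The ranges of neighbours overlapped there only for CSF2RB and EPOR. In MV4-11 DMSO it was FLT3, IL6R, CSF3R, CSF1R, CSF2RA, EPOR, FLT3LG, CSF2RB and KIT, with overlap between CSF1R and CSF2RA and between EPOR and FLT3LG. In OCI-AML3 AC220 the order was IL6R, CSF3R, FLT3, CSF2RB, FLT3LG, CSF1R, EPOR, CSF2RA and KIT, and the libraries of CSF3R and FLT3, of CSF2RB and FLT3LG, of FLT3LG and CSF1R and of CSF1R and EPOR overlapped. In OCI-AML3 DMSO it was IL6R, CSF3R, FLT3, FLT3LG, CSF1R, CSF2RB, EPOR, CSF2RA and KIT, with overlap along the run of FLT3LG, CSF1R, CSF2RB and EPOR. CSF1R thus moved past CSF3R with AC220 in MV4-11.

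The genes whose log2 CPM followed FLT3 most closely over the 12 libraries, among 10560 compared, were POLR1D, H2AFY and SARAF, with Pearson's r of 0.997, 0.996 and 0.995. For CSF1R they were TRAPPC6A, USP48 and IGFLR1, each with r of 0.995. For CSF3R they were TYMP (0.980), CKB (0.977) and SAMHD1 (0.977). The genes named for FLT3 and CSF1R were higher in both MV4-11 groups than in both OCI-AML3 groups by mean CPM. TYMP, CKB and SAMHD1, like CSF3R, had their lowest mean CPM in MV4-11 DMSO, TYMP with 34.6 and 10.6 CPM in MV4-11 with AC220 and DMSO and 24.6 and 28.3 CPM in OCI-AML3 with AC220 and DMSO. These values are descriptions over 4 groups of 3 libraries, which are not 12 independent points.

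Genes around the receptors were read in MV4-11 beside a median log2 fold change of 0.07 over all tested genes and the 58.3% of them called. Of 28 other receptor tyrosine kinase genes 14 were tested, 5 rose and 2 fell (median 0.15). LTK rose by 3.31 on the log2 scale (edgeR adjusted p = 1.54e-10), AXL, a receptor for GAS6, by 1.49 (4.14e-06), and INSR, the insulin receptor, by 0.44 (0.000915). FGFR1 fell by 0.98 (6.34e-05) and TYRO3, a relative of AXL, by 1.26 (0.000422). The other 7 of the 14 were not called. Of 29 other cytokine receptor chains 22 were tested, 10 rose and 4 fell (median 0.52). IL10RA rose by 2.36 (adjusted p = 1.20e-11), IL13RA1 by 1.66 (1.87e-12) and IL11RA by 1.57 (3.72e-10). IFNGR2, a chain of the interferon gamma receptor, fell by 1.24 (2.14e-12) and IL7R by 1.32 (1.62e-07). IL2RB had 3 counts over the AC220 group and 82 over the DMSO group, a DMSO-to-AC220 ratio of 19.7 (95% counting interval 6.52 to 97.6).

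Of 35 receptor-proximal signal proteins, all tested, 18 rose and 6 fell in MV4-11 (median 0.27). The phosphatase PTPRC (CD45) rose by 0.88 on the log2 scale (edgeR adjusted p = 6.07e-13), PIK3R1, the regulatory subunit of PI3K, by 1.05 (8.04e-13), and JAK1 by 0.91 (2.67e-10). PTPN11, the phosphatase SHP2, fell by 0.67 (3.90e-09), PTPRJ by 1.56 (7.84e-05) and SH2B3, the adaptor LNK, by 0.58 (0.000250). Of 10 genes of receptor shedding and turnover 4 rose and none fell (median 0.29), RHBDF1 by 1.31 (0.000145), FRMD8 by 0.53 (0.00269), ITCH by 0.45 (0.0280) and, outside the rule for named genes, USP8 by 0.20 (0.0287). At an unadjusted p under 0.05 the edgeR test gave 6 higher and 0 lower in this list, beside 7733 of all 12392 tested genes in either direction. DESeq2 called 4 higher and 0 lower, beside 7094 of the 12392 in either direction. The edgeR test called 2 higher without MV4-11 DMSO replicate 1, without a filter on low counts and with only MV4-11 libraries fitted. It called 3 higher without MV4-11 AC220 replicate 1, as did limma on the deposited values. The ITCH call was lost in 7 alternatives, with adjusted p of 0.0575 to 0.101, among them leaving out MV4-11 DMSO replicate 1 or 2 or MV4-11 AC220 replicate 1 or 3. Of 19 myeloid transcription factors of receptor genes 18 were tested, 7 rose and 5 fell (median 0.13). ETS2 rose by 2.01 (2.18e-19), TFEC by 1.93 (1.01e-11) and CEBPA, a regulator of CSF3R, by 0.51 (3.10e-08). CEBPB fell by 1.54 (5.53e-10), CBFB by 0.63 (1.03e-07) and CEBPD by 0.91 (7.25e-05). SPI1, the gene of PU.1, was named after its value was seen, and its log2 difference of 0.13 was not called (adjusted p = 0.263).

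In OCI-AML3 the same lists were read beside the 3.95% of all tested genes called, 426 higher and 63 lower, or 363 and 126 with median-ratio scaling. At an unadjusted p under 0.05 by edgeR, 2574 of the 12392 tested genes differed, and DESeq2 called 813 of the 12392. Among the other receptor tyrosine kinases 1 of 14 rose (RYK, log2 0.48, edgeR adjusted p = 0.0389). Of the 22 other cytokine receptor chains edgeR called none, with 4 at an unadjusted p under 0.05, and DESeq2 called 2. Of the signal proteins 2 of 35 rose, GRB2 by 0.33 (adjusted p = 0.0105) and SYK by 0.31 (0.0252), and DOK2 fell by 0.37 (0.0442). Of the 10 genes of shedding and turnover edgeR and DESeq2 called none, with 2 at an unadjusted edgeR p under 0.05. Of the 18 transcription factors 3 rose, ETS2 by 0.33 (0.0180), CEBPB by 0.51 (0.0204) and, outside the rule for named genes, KLF4 by 1.93 (0.0453), on 54 counts over the AC220 group and 14 over the DMSO group. The calls of the 6 genes named by the rule were each lost without OCI-AML3 DMSO replicate 1, without OCI-AML3 DMSO replicate 2 and without OCI-AML3 AC220 replicate 3. Of 20 alternatives, the call of DOK2 was lost in 11, RYK in 7, SYK and CEBPB in 5 each, and GRB2 and ETS2 in 4 each. The CEBPB groups of OCI-AML3 overlapped, at 51.9 to 72.4 CPM with AC220 and 41.8 to 52.2 CPM with DMSO, and that call was also lost without OCI-AML3 AC220 replicate 2 (adjusted p = 0.0847) and by limma on the deposited values (0.0644).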

How the data were processed

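RNA of 12 libraries was measured, 3 in each of 4 groups. Per the submitters' processing notes, reads were handled with HISAT2 2.0.4 and with featureCounts of Subread 2.0.0, beside bcl2fastq 2.17.1.14, cutadapt 1.9.1, FastQC 0.11.6, limma 3.42.2 and R 3.6.1, on the build hg19. Annotation, strand setting, filters and the treatment of reads with several positions are not given in the sources used here, so reads of overlapping or near-identical genes may be divided or lost. The authors deposited a table of raw counts, with 1 row per gene symbol. The authors also deposited normalised log2 values of 11075 genes, used here only as an alternative. One row without a symbol (0.00343% to 0.00503% of counts) was left out.

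Genes were filtered with filterByExpr (minimum count 10), scaled by TMM and tested in R 4.3.3 with the robust quasi-likelihood F test of edgeR 4.0.16. A single fit held the 12 libraries and 4 group means (8 residual degrees of freedom), and p-values were adjusted by Benjamini-Hochberg over 12392 genes, with a threshold of 0.05. The common biological coefficient of variation was 8.28%. No 2 libraries were identical, and each counts as a replicate. The precision of low genes is limited by depth: 3 counts, the floor for a gene without counts, amount to 0.174 to 0.279 CPM in a library. Intervals of counts and floors cover counting error only, and a floor covers only that of the gene without counts. Alternatives were median-ratio scaling, other filters, DESeq2 1.42.0, limma-voom and limma on the deposited values (limma 3.58.1), a replicate block, fits of only the libraries compared, and leaving out each library. The procedure was tested on simulated counts.

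Promoter sequences come from RefSeq (GRCh38.p14) and matched 8 of the 9 genes; the files hold no coordinates. The genes and lists were chosen with earlier results of these data known. Named are the 9 genes, of each list up to 3 genes called in each direction by smallest adjusted p in MV4-11 (up to 2 in OCI-AML3), ligands with at least 10 counts in a library, and the 3 genes most correlated with FLT3, CSF1R and CSF3R among those with a mean count of at least 20.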

Additional observations from a re-analysis of the deposited data

Results flagged for a closer look

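The AC220 responses of MV4-11 and OCI-AML3 differed, by the test of the difference itself (edgeR, adjusted over all tested genes), for 4 genes. The log2 difference of MV4-11 minus OCI-AML3 responses was 2.75 for CSF1R (SE 0.241, adjusted p = 1.19e-10), 1.52 for CSF3R (SE 0.154, adjusted p = 2.18e-09), 1.24 for IL6R (SE 0.0957, adjusted p = 8.13e-12) and -1.17 for EPOR (SE 0.365, adjusted p = 0.00933). By the same test 46.7% of all tested genes were called. In MV4-11 the AC220 and DMSO libraries of all 4 genes did not overlap, against 62.4% of all tested genes. In OCI-AML3 those of CSF1R and IL6R did not overlap either, against 23.9% of all tested genes. The AC220 response of none of the 4 was called there. The summed myeloid markers were 1109 to 1347 CPM in MV4-11 AC220, against 434 to 452 CPM in MV4-11 DMSO, mostly through TYROBP (means of 794 CPM with AC220 and 192 CPM with DMSO). The median log2 fold change of the 9 markers was 0.24, and their part in these differences was not tested.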

How the results depend on the processing

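Of 787 log2 fold changes of the 8 tested genes under the alternatives, 756 kept their direction and their side of the threshold, 7 lost a call, 11 gained one and 13 turned direction. All 13 were of differences not called in the reported fit. They were FLT3LG in MV4-11 (0.04 as reported) with -0.020 by limma on the deposited values, -0.021 with only the compared libraries, -0.065 without MV4-11 DMSO replicate 2 and -0.04 without MV4-11 AC220 replicate 3 (leave-one-out range -0.065 to 0.088); CSF2RA in OCI-AML3 (0.15) with -0.22 by limma on the deposited values, -0.20 without OCI-AML3 DMSO replicate 1 and -0.28 without OCI-AML3 AC220 replicate 2 (range -0.28 to 0.61); EPOR in OCI-AML3 (-0.17) with 0.071 without DMSO replicate 3 (range -0.36 to 0.071); CSF3R in OCI-AML3 (-0.08) with 0.025 without AC220 replicate 1 (range -0.21 to 0.025); the CSF2RA difference of responses (0.28) with -0.18 without OCI-AML3 DMSO replicate 2 and -0.11 without OCI-AML3 AC220 replicate 1 (range -0.18 to 0.71); and EPOR between the lines under AC220 (0.09) with -0.10 without MV4-11 AC220 replicate 3 and -0.03 without OCI-AML3 AC220 replicate 1 (range -0.10 to 0.29). The cause was not tested. With 1 library left out, 4 to 6 of the 8 genes were called in MV4-11, beside 6620 to 7391 of all tested genes. For the difference of responses it was 4 to 5, beside 5308 to 6130. Between the lines it was 6 to 7 under AC220, beside 9150 to 9580, and 6 in each case under DMSO, beside 7563 to 8424. In OCI-AML3 the number of the 8 genes called was 0 as reported and 0 to 1 with 1 library left out. It was 1 (FLT3) with DESeq2, with limma on the deposited values and with only the compared libraries.

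Over all genes, 489 were called in OCI-AML3, 836 without a filter, 813 by DESeq2 and 118 by limma on the deposited values. Leaving out 1 library gave 13 to 1136: 13 without OCI-AML3 DMSO replicate 1, 15 without DMSO replicate 2, 22 without AC220 replicate 3, 116 without AC220 replicate 2, 943 without AC220 replicate 1, 998 without DMSO replicate 3 and 1136 without MV4-11 AC220 replicate 1.

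Whether the replicate numbers of the labels pair the samples was not settled. Correlations of deviations between same-numbered AC220 and DMSO libraries were -0.12, -0.09 and -0.08 in MV4-11 and 0.08, 0.05 and 0.18 in OCI-AML3. Libraries of different numbers were not compared in this way. With a block for each replicate number within each line, 764 genes were called in OCI-AML3. In the same fit FLT3 in MV4-11 had a log2 fold change of 0.69 (edgeR adjusted p = 0.0902), and CSF2RA in MV4-11 was called (adjusted p = 0.0311). CSF1 was not tested under the stricter filter. KIT, CSF1 and CSF2RA in OCI-AML3 are limited by depth, with under 20 counts in most libraries.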

Other observations

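Partner chains of the receptors, named here for their role after their values were seen, were read in MV4-11. IL3RA, which pairs with CSF2RB to bind interleukin-3, was 1.64-fold higher with AC220 (log2 0.72, edgeR adjusted p = 3.58e-07), while CSF2RB was not called. Between the lines under AC220, IL3RA was 10.3-fold higher in MV4-11 (adjusted p = 1.35e-20), whereas CSF2RB was lower there. IL6ST, the signalling partner of IL6R, was not called with AC220 in MV4-11 (log2 difference 0.18, SE 0.298, adjusted p = 0.629), where IL6R rose. Under AC220 IL6ST was lower in MV4-11 than in OCI-AML3 (log2 -1.14, adjusted p = 0.000440), and likewise under DMSO (log2 -1.21, adjusted p = 0.000243). ADAM10 and ADAM17, proteases that can cut receptors such as IL6R and CSF1R from the cell surface, were not called with AC220 in MV4-11 (log2 differences of -0.02 and -0.11, adjusted p = 0.915 and 0.221) or in OCI-AML3 (0.39 and 0.15, adjusted p = 0.0684 and 0.306).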
